A study of Mus musculus with 8 samples.

Results

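NF-kB is a family of transcription factors, and 10 mouse genes of its core circuit are described here in splenic tumors that grew from FL5.12 cells. The 10 genes were chosen by name: the subunit genes Nfkb1, Nfkb2, Rel and Relb, the inhibitor genes Nfkbia and Nfkbie, and the target genes Tnfaip3, Traf1, Birc3 and Icam1. Their probe sets were found by the gene symbol of the platform annotation, which gave 14 of the 22690 probe sets on the array and covered 9 of the 10 genes. Nfkb1 (chromosome 3) was not analysed here. Each of the 14 probe sets carried 1 symbol.

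The tumors came from the spleens of 3 nude mice, each injected into a vein with FL5.12 cells that stably carried Bfl-1DC together with p53DD, and each tumor was hybridised to 2 arrays. The uninjected cells of the same transfected line, called parental, were hybridised to 2 arrays as well, which made 8 Affymetrix mouse expression arrays. FL5.12 is a line of mouse pro-B cells that depends on interleukin-3, Bfl-1 is a survival protein of the Bcl-2 family whose gene is itself a known NF-kB target, and p53DD is known as a dominant-negative fragment of p53. Tumors and parental cells therefore shared both transgenes, and the age of the mice is not given in the labels used here. Nude mice lack a thymus and with it most T cells, and they keep myeloid, B and stromal cells of their own. The labels describe 1 culture protocol for all samples, with interleukin-3 supplied by WEHI-3B supernatant, and the tumor material as cells from the spleen. The study asked which expression changes arose as the cells formed tumors.

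In resting cells, NF-kB dimers are held in the cytoplasm by IkB proteins such as those of Nfkbia and Nfkbie. Signals from TNF-family and Toll-like receptors lead to the destruction of IkB, and the freed dimers enter the nucleus and switch on genes that include Nfkbia, Nfkb2, Relb, Tnfaip3, Traf1, Birc3 and Icam1. Several of these products then end the signal, so that their RNA is often read as a trace of NF-kB activity in lymphoid cells.

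Among the genes bright enough to test, Icam1 had a mean signal of 121 in tumors and 51.9 in parental cells. It lay above parental cells on every tumor array, yet it did not pass the test over all probe sets. Traf1 exceeded the 40th percentile of the signal on 5 tumor arrays and on neither parental array. Nfkbia and Birc3 differed between the duplicate arrays of a source. Testing was limited to probe sets brighter than the 40th percentile of the array on 2 or more of 8 arrays, and 10 of the 14 probe sets, of 6 genes, did so. Those genes were Nfkb2, Nfkbia, Nfkbie, Traf1, Birc3 and Icam1. Across the array 14893 probe sets were tested, and changes are given on the scale of log2(signal + 16), tumors minus parental cells. In the comparison of the 3 tumors with parental cells, limma called 0 of the 10 probe sets at an adjusted p of 0.05, where 0.698% of all tested probe sets were called. An unadjusted p under 0.05 was found for 15.5% of all tested probe sets, and among the 10 for Icam1 (0.00112) and for Traf1 (0.0268), which came to be tested through its tumor arrays alone. A fit of all 8 arrays with the source as a random block called 1 of the 10, that of Icam1, and 1.3% of all tested probe sets. The correlation within a source was estimated at 0.00621 in that fit, so it counted duplicate arrays almost as independent samples. With the replicate block added Icam1 was no longer called, and 0.665% of all were. Whether the 2 parental arrays stand for separate cultures is not stated in the labels, so the p-values may rest on technical spread.

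The promoters of the 4 genes on which these comparisons turn are shown as the 250 bases before the RefSeq start, 5' to 3' on the strand of the gene in GRCm38.p6. Icam1 and Traf1 are shown for their values in tumors against parental cells, and Nfkbia and Birc3 moved together with the array number. Capitals mark matches on either strand to the decamer known as the kB consensus or to the 9-base motif GGAANTTCC, which overlap where both match.
Icam1, chr9:21015690-21015939, plus strand: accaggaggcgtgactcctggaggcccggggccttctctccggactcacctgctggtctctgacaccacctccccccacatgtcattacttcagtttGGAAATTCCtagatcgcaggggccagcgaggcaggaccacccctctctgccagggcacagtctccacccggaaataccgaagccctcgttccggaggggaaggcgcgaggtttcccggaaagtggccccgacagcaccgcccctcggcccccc
Traf1, chr2:34961773-34962022, minus strand: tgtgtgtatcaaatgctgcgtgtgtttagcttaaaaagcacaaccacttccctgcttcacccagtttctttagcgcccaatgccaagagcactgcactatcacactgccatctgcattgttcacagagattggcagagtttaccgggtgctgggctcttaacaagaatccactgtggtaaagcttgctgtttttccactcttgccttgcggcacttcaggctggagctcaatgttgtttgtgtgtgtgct
Nfkbia, chr12:55492648-55492897, minus strand: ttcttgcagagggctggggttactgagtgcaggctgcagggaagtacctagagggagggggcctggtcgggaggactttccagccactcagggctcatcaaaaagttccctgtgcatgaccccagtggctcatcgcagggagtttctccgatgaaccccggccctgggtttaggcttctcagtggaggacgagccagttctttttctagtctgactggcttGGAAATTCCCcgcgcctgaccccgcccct
Birc3, chr9:7873171-7873420, minus strand: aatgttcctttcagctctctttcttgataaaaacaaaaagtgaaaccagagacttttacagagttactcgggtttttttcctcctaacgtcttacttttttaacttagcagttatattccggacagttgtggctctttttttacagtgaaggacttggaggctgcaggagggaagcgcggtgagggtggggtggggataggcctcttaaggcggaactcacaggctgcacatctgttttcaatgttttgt

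Icam1 had a match to GGAANTTCC from position -153 to -145 before its start. Nfkbia had a match to the kB consensus from position -29 to -20 and to GGAANTTCC from position -29 to -21. The windows of Traf1 and Birc3 held neither set of letters, and both windows lie partly inside the gene as RefSeq annotates it. RefSeq windows were at hand for 8 of the NF-kB genes, and 6 of these had a match in at least 1 window, namely Nfkb2, Rel, Nfkbia, Nfkbie, Tnfaip3 and Icam1. The kB consensus occurred in 7.25% and GGAANTTCC in 0.813% of all 32851 windows of this length. Some genes had more than 1 window. Counted by window, either motif occurred in 8 of the 11 windows of these genes and in 7.72% of all windows.

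Icam1, on chromosome 9, encodes the adhesion molecule that binds leukocyte integrins and is a classical NF-kB target. On the 2 arrays of a tumor its signal was 165 and 124 (tumor 1), 122 and 105 (tumor 2), and 116 and 93.8 (tumor 3), against 56.1 and 47.8 on the parental arrays. All 6 tumor arrays lay above both parental arrays, as was the case for 9.35% of all tested probe sets. The mean was 121 ± 20.7 (SD, n = 3 tumors) in tumors and 51.9 ± 5.89 (SD, n = 2 arrays) in parental cells. The change was 1.00 ± 0.18 (SE), or 1.99-fold on that scale, with an adjusted p of 0.0894. In the random-block fit the adjusted p was 0.0432, and 0.0627 with the replicate block in that fit. Over the 19 alternatives it lay between 0.0432 and 0.455, and the change lay between 0.66 and 1.19.

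Taken one tumor at a time, in a fit whose spread is that between duplicate arrays, Icam1 rose in tumor 1 by 1.23 ± 0.21 (SE; adjusted p = 0.0268), where 2.92% of tested probe sets were called. Its change was 0.93 in tumor 2 (adjusted p = 0.106; 1.28% called) and 0.83 in tumor 3 (adjusted p = 0.103), with the same SE. With the replicate number as a block all 3 tumors passed, with adjusted p of 0.00312, 0.0136 and 0.0154 in tumors 1, 2 and 3, in fits that called 13.8%, 5.46% and 9.13% of tested probe sets. The F test for a difference among the 3 tumors gave an adjusted p of 0.713.

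**Figure D1:**
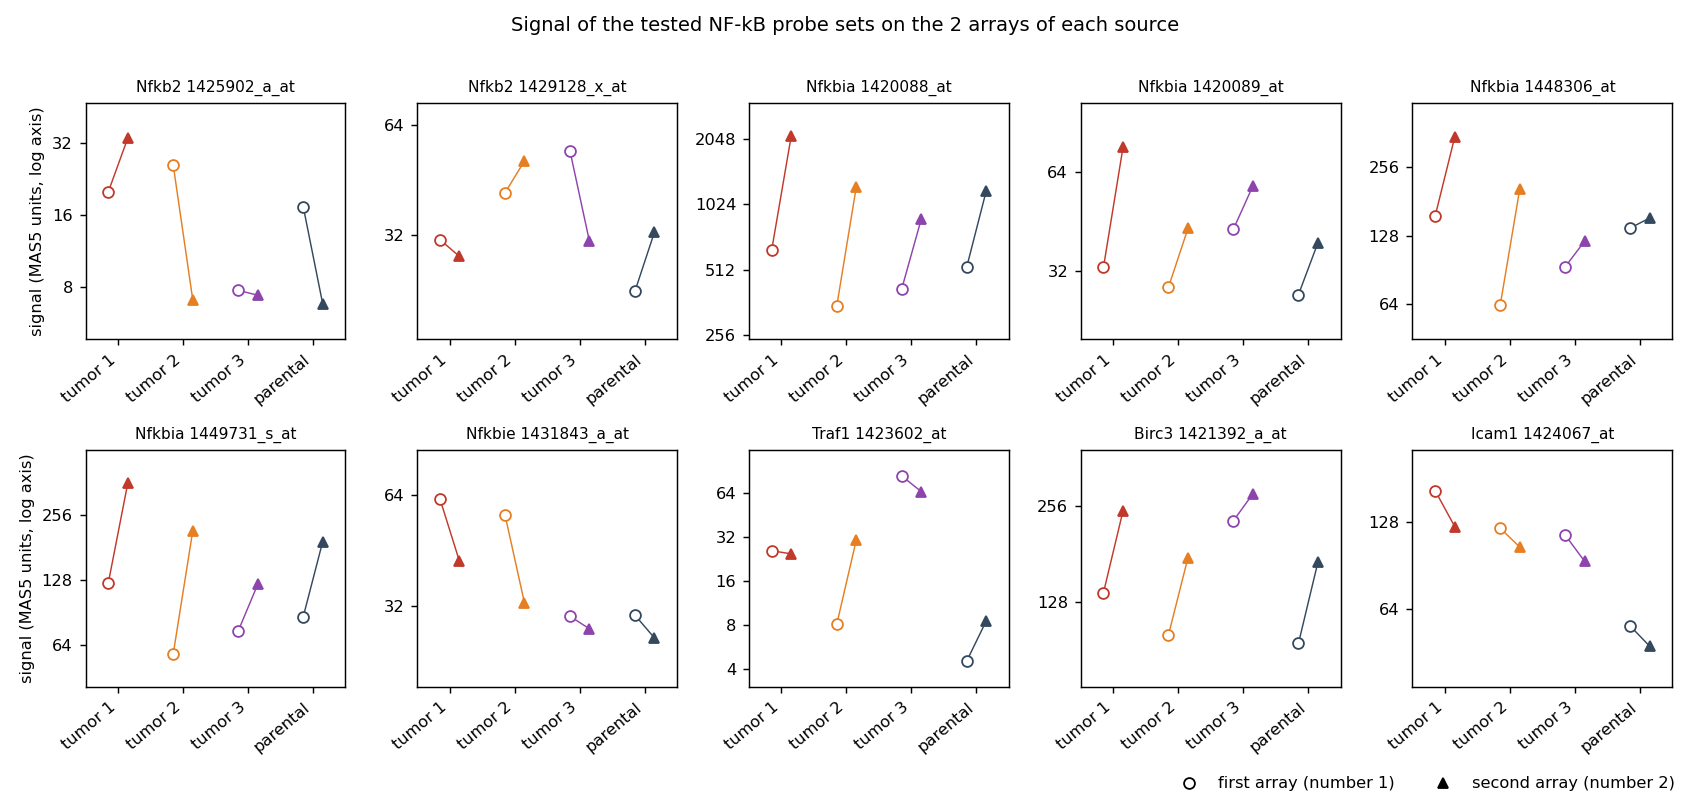
Signal of the 10 tested probe sets on each array, one panel a probe set, with tumors 1 to 3 left of the parental cells on the x axis and MAS5 signal on a log y axis. Open circles are first arrays, triangles are second arrays, and a line joins the 2 arrays of a source. The 6 tumor arrays of Icam1 sit between 93.8 and 165, above both parental arrays, while the second arrays of Nfkbia sit above the first in every source.

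Markers of other cell types are given here beside Icam1, which endothelial, stromal and myeloid cells also express. The labels describe the tumor material only as cells from the spleen. In such samples a different share of cells of a type and a different amount of RNA per cell cannot be told apart. Over all tested probe sets limma called 0.497% higher, and 15.5% had an unadjusted p under 0.05 in either direction. Of the 15 macrophage and monocyte markers 9 were tested and 3 rose (Ccr2, Lyz2 and Cd14), and their summed signal ranged from 832 to 3250 on tumor arrays and from 207 to 909 on parental arrays. Of the 14 neutrophil markers 10 were tested and Mpo and Ngp rose, with sums of 4175 to 10560 in tumors and 320 to 832 in parental cells. Of the 8 eosinophil markers 4 were tested and Epx and Prg2 rose, with sums of 3642 to 8221 in tumors and 38.1 to 44.1 in parental cells. Ccr2, Cd14, Epx and Prg2 exceeded the 40th percentile on 6 arrays, none of them parental. Like Traf1, they came to be tested through their tumor arrays alone. Of the 10 T cell markers 2 were tested and Cd3g rose (sums of 860 to 2579 in tumors and 65.6 to 74.2 in parental cells). Of the 10 genes listed as mature B cell markers 5 were tested and Cd79b rose (sums of 491 to 877 in tumors and 352 to 444 in parental cells). Cd79b had signals of 109 and 77.6 on the parental arrays, so it does not mark cells of the mouse alone. The sums of endothelial markers, with 5 of 10 tested and 0 called by limma, were 264 to 448 in tumors and 308 to 362 in parental cells, and 2 of the 5 had an unadjusted p under 0.05. Those of stroma markers, with 4 of 12 tested and 0 called, were 1801 to 2945 in tumors and 1800 to 2268 in parental cells, and 1 of the 4 had an unadjusted p under 0.05. For natural killer cell markers, 1 of 7 was tested and 0 called (1 at an unadjusted p under 0.05), and for dendritic cell markers 2 of 10 were tested and 0 called, by limma, with 0 at an unadjusted p under 0.05. The sums of natural killer cell markers were 106 to 157 in tumors and 40.9 to 72.3 in parental cells, and those of dendritic cell markers 69.7 to 144 in tumors and 73.4 to 78.8 in parental cells. Of the 10 markers of pro-B cells, the type that FL5.12 is described as, only Igll1 was tested. It lay under the 40th percentile on both parental arrays, at 3.92 and 13.75. The summed signal of the 10 markers was 53.3 to 97.7 in tumors and 41.4 to 59.5 in parental cells. On the second tumor arrays the macrophage sums were 2048 to 3250, against 832 to 1478 on the first tumor arrays. The 2 parental arrays, which also carry different numbers, had macrophage sums of 207 and 909. Icam1 was lower on the second array than on the first in each source. The part of these cells in the Icam1 signal was not tested.

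Traf1, on chromosome 2, encodes an adaptor of TNF receptors and is a known NF-kB target. Its signal was 25.7 and 24.5 (tumor 1), 8.06 and 30.4 (tumor 2), 83.6 and 65.4 (tumor 3), against 4.52 and 8.498 in parental cells. Tumor 3 stood highest, and only the first array of tumor 2 overlapped the parental arrays. The tumors averaged 39.6 ± 30.4 (SD, n = 3) and the parental cells 6.51 ± 2.81 (SD, n = 2 arrays). The change of 1.15 ± 0.41 (SE) had an adjusted p of 0.254. Neither parental array exceeded its 40th percentile, so the size of the change depended on the pseudocount, at 2.15 with 1 and 0.51 with 64. Without tumor 3 the change was 0.725.

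By tumor, Traf1 rose in tumor 3 by 2.01 ± 0.31 (SE; adjusted p = 0.0184), where 2.14% of tested probe sets were called, and the adjusted p was 0.00855 with the replicate block. Its change was 0.87 in tumor 1 (adjusted p = 0.187) and 0.58 in tumor 2 (adjusted p = 0.507). Of the 10 probe sets Traf1 had the lowest p in the F test among the tumors, yet the adjusted p was 0.138, and 0.0522 with the replicate number as a block. In those tests 1.26% and 5.28% of tested probe sets were called.

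Birc3, on chromosome 9, encodes a ubiquitin ligase of the inhibitor-of-apoptosis family that works in TNF receptor complexes. On probe set 1421392_a_at its signal was 137 and 247 (tumor 1), 101 and 176 (tumor 2), 231 and 280 (tumor 3), against 94.5 and 171 in parental cells. Tumor 3 stood above both parental arrays on both of its arrays, and tumors 1 and 2 overlapped the parental range. The change was 0.48 ± 0.32 (SE) with an adjusted p of 0.512, and it was 0.106 without the first and 0.863 without the second parental array. In tumor 3 alone it was 0.91 ± 0.37 (SE; adjusted p = 0.311), and the adjusted p was 0.0235 with the replicate number as a block. The second probe set of the gene, 1425223_at, was not tested, with signals of 1.37 to 4.26 in tumors and 1.51 and 1.98 in parental cells.

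Nfkbia, on chromosome 12, encodes IkB-alpha, the inhibitor that NF-kB induces within minutes and that recaptures it. On probe set 1420088_at its signal was 635 and 2118 (tumor 1), 348 and 1229 (tumor 2), 419 and 876 (tumor 3), against 528 and 1181 in parental cells. Tumor and parental arrays overlapped throughout, and the second array was the higher one in each source. The mean was 938 ± 387 (SD, n = 3) in tumors and 854 ± 462 (SD, n = 2 arrays) in parental cells. The change was -0.03 ± 0.41 (SE; adjusted p = 0.984), with a 95% interval from -0.996 to 0.937.

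The other 3 probe sets of Nfkbia gave changes of 0.33 ± 0.20 (1420089_at), -0.02 ± 0.32 (1448306_at) and 0.03 ± 0.40 (1449731_s_at), with adjusted p of 0.479, 0.988 and 0.981. Over the 8 arrays the 4 probe sets correlated with each other at 0.64 to 0.99. A probe set ending in _s_at or _x_at can also bind transcripts of other genes. By tumor, tumor 1 lay above parental cells on all 4 probe sets, by 0.46 to 0.64. Tumors 2 and 3 lay on both sides of 0, at -0.29 to 0.08 and at -0.40 to 0.44. None of these passed, with a lowest adjusted p of 0.508 without and 0.123 with the replicate block, and the F test among tumors gave adjusted p of 0.628 to 0.864.

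Nfkbie, on chromosome 17, encodes IkB-epsilon, a second inhibitor. Its signal was 62.4 and 42.3 (tumor 1), 56.6 and 32.7 (tumor 2), 30.1 and 27.8 (tumor 3), against 30.3 and 26.3 in parental cells. Tumors 1 and 2 lay above both parental arrays, and tumor 3 lay within their range. The change was 0.35 ± 0.21 (SE) with an adjusted p of 0.465.

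Nfkb2, on chromosome 19, encodes the precursor that is cut to a subunit of the noncanonical pathway. Probe set 1429128_x_at had signals of 31.0 and 27.9 (tumor 1), 41.7 and 51.1 (tumor 2), 54.4 and 30.6 (tumor 3), against 22.4 and 32.5 in parental cells. The groups overlapped, and the change was 0.34 ± 0.20 (SE; adjusted p = 0.472). Probe set 1425902_a_at exceeded the 40th percentile on 4 of 8 arrays. It had signals of 20.0 and 33.6 (tumor 1), 25.9 and 7.10 (tumor 2), 7.77 and 7.41 (tumor 3), against 17.4 and 6.81 in parental cells. Its change was 0.19 ± 0.29 (SE; adjusted p = 0.804). The 2 probe sets put different tumors highest, tumors 2 and 3 on the first and tumors 1 and 2 on the second.

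The other subunit genes and Tnfaip3 gave too little signal to be tested. Rel (chromosome 11), the subunit typical of lymphoid cells, had signals of 4.70 to 22.4 in tumors and 10.78 and 13.01 in parental cells, and exceeded the 40th percentile on 1 array, the second of tumor 1. Relb (chromosome 7), the partner of the Nfkb2 product, had signals of 0.71 to 4.54 in tumors and 0.69 and 0.70 in parental cells. All its tumor arrays lay above both parental arrays, at signals too low for a level to be read. Tnfaip3 (chromosome 10) encodes A20, an enzyme that edits ubiquitin chains to end the signal, and it had signals of 7.80 to 15.9 in tumors and 10.2 and 14.7 in parental cells. Neither Relb nor Tnfaip3 exceeded the 40th percentile on any array.

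**Figure D2:**
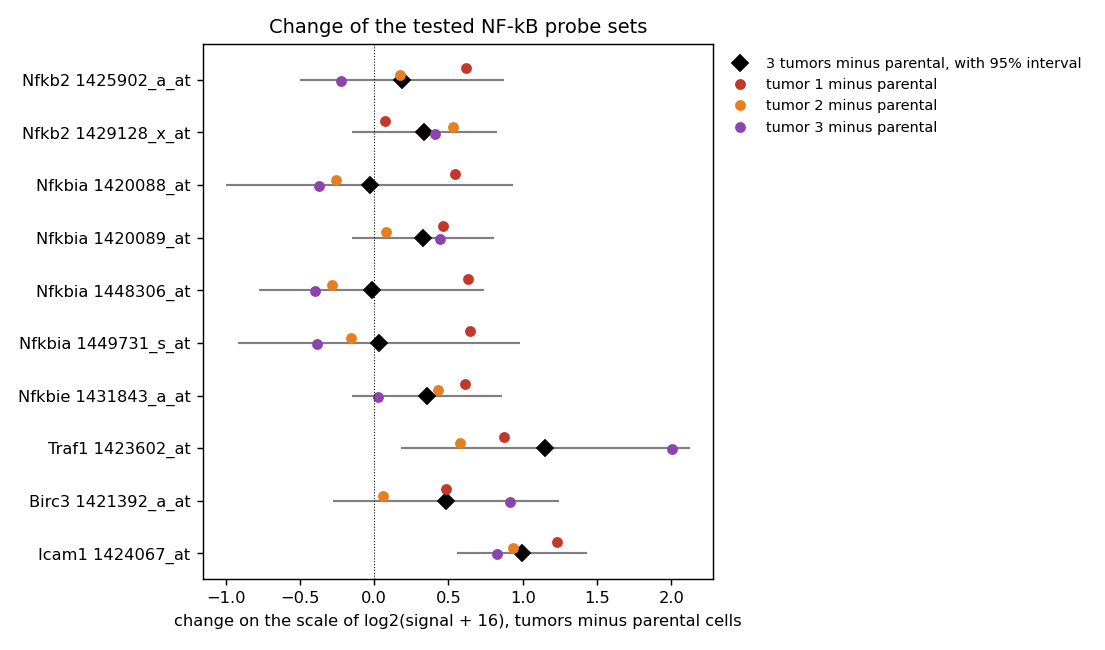
Change of the 10 tested probe sets on the x axis, as log2(signal + 16) of tumors minus parental cells, one row a probe set. Diamonds are the mean of 3 tumors with its 95% interval as a line, and coloured points are the single tumors. The intervals of Icam1 and Traf1 lie to the right of 0 before any adjustment for the number of probe sets, and the 3 points of Icam1 lie between 0.83 and 1.23.

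The 2 arrays of a source differed more for Nfkbia than tumors did from parental cells. Each source has an array numbered 1 and an array numbered 2, and what the numbers stand for is not stated. In a comparison chosen after seeing the data, second arrays were set against first arrays with a mean per source. This called 17.4% of all tested probe sets, 7.63% higher and 9.8% lower on the second arrays. Of the 10 NF-kB probe sets 4 were higher on the second arrays, 3 of Nfkbia and 1 of Birc3, and 0 were lower by limma's adjusted p, with 2 lower at an unadjusted p of 0.05 (Nfkbie and Icam1). That count stands above the share over all probe sets, but 3 of the 4 report the same RNA.

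For Nfkbia, probe set 1420088_at was higher on the second array by 1.71, 1.77 and 1.04 in tumors 1, 2 and 3 and by 1.14 in parental cells. The mean was 1.42 ± 0.15 (SE; adjusted p = 0.00689), a 2.67-fold difference. Probe sets 1449731_s_at and 1420089_at differed by 1.17 ± 0.17 and 0.50 ± 0.13 (adjusted p = 0.0112 and 0.039). Probe set 1448306_at differed by 0.75 ± 0.22 (adjusted p = 0.0588), in the same direction in all 4 sources. All 4 sources had the second array higher in 19.6% of tested probe sets.

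Birc3 was higher on the second array by 0.79, 0.72 and 0.27 in tumors 1, 2 and 3 and by 0.76 in parental cells, with a mean of 0.63 ± 0.12 (SE; adjusted p = 0.0195). Its call was lost without tumor 1 (0.069), without tumor 2 (0.0793) and without the parental cells (0.0673). The probe set 1420089_at of Nfkbia lost its call whichever source was left out (0.0704 to 0.108), and the other 2 called probe sets of Nfkbia kept theirs in each case. Icam1 went the other way in all 4 sources, with a mean of -0.25 ± 0.10 (SE; adjusted p = 0.109), and 23.1% of tested probe sets were lower on all 4 second arrays. Among cell type markers, the second arrays were higher for 6 of 9 tested macrophage markers and 2 of 10 tested neutrophil markers. Actb, which encodes a cytoskeletal actin, was higher by 0.49 (adjusted p = 0.0215). The 3' to 5' signal ratio of the Gapdh control probe sets, a sign of RNA quality, was 0.708 to 0.763 on second arrays and 0.744 to 0.798 on first arrays, and that of the actin control probe sets was 1.06 to 1.19 on second arrays and 1.18 to 1.25 on first arrays. The part of these in the array difference was not tested.

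**Figure D3:**
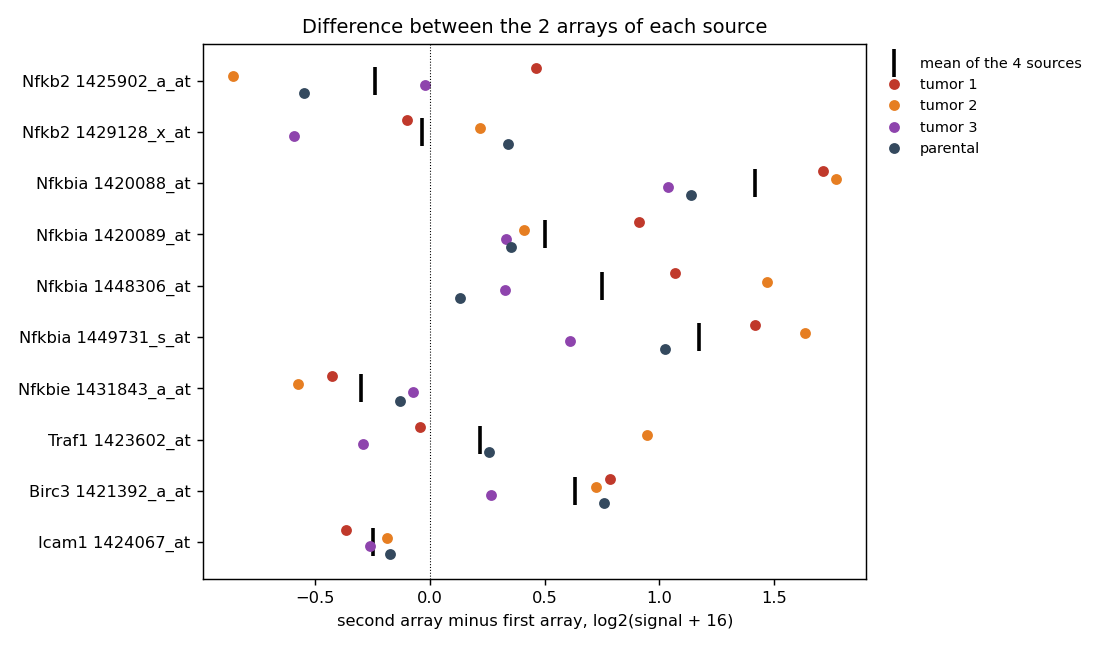
Difference between the second and the first array of each source on the x axis, as log2(signal + 16), one row a probe set. Coloured points are the 4 sources and black bars their mean. All sources lie to the right of 0 for the 4 probe sets of Nfkbia and for Birc3, and to the left of 0 for Icam1 and Nfkbie.

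When each tumor array was set against the parental array that shared its number, Icam1 was higher in every tumor, with changes of 0.87 to 1.32 among first arrays and 0.78 to 1.13 among second arrays. Traf1 differed by 0.23 to 2.28 among first arrays and by 0.73 to 1.73 among second arrays. For Nfkbia (1420088_at) tumor 1 lay above the parental array by 0.26 on the first and 0.83 on the second array, tumor 3 lay below it, at -0.32 and -0.42, and tumor 2 changed sign, at -0.58 and 0.06.

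The wider pathway was covered by 5 further lists, read by their counts and medians beside those of all tested probe sets, whose median change was 0.01, with 0.497% called higher and 0.201% lower. Among receptors, 12 of 16 genes were tested, 1 rose and 0 fell by limma, 5 had an unadjusted p under 0.05, and the median change was 0.38, or 0.0618 with tumor arrays of number 1 alone. Il1rap, the co-receptor for interleukin-1, rose in the tumors. Its signal was 39.0 and 93.0 (tumor 1), 75.1 and 103 (tumor 2), 66.1 and 82.7 (tumor 3), against 22.3 and 20.2 in parental cells, so that all tumor arrays lay above both parental arrays. Its change was 1.27 ± 0.18 (SE; adjusted p = 0.0414). That call held in 6 of 19 alternatives, with adjusted p between 0.0169 and 0.531, and it was lost whichever tumor or parental array was left out (0.0598 to 0.172). In single tumors the adjusted p of Il1rap was 0.138, 0.0942 and 0.102 for tumors 1, 2 and 3, and 0.034, 0.0202 and 0.0241 with the replicate block. Tnfrsf13b, a receptor for B cell survival ligands, lay below both parental arrays on every tumor array, at 64.5 to 105 in tumors and 181 and 283 in parental cells, with a change of -1.37 (adjusted p = 0.0926), and 8.27% of all tested probe sets lay below in this way. Tnfrsf13b passed the test in 1 of the 19 alternatives (adjusted p between 0.0259 and 0.473). In single tumors its adjusted p was 0.0143, 0.0182 and 0.069 for tumors 1, 2 and 3. With the replicate block these were 0.00506, 0.0065 and 0.0228.

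Of the 11 ligand genes 6 were tested, with a median change of 0.20, which was -0.2 with the filter at the 60th percentile and 0.07 without tumor 1, and 0 were called by limma, with 1 at an unadjusted p under 0.05. Tnfsf13b, which encodes the B cell survival ligand BAFF, had a change of 0.84 (adjusted p = 0.203) and Tnfsf9 one of 0.34 (adjusted p = 0.445). Tnfsf13b exceeded the 40th percentile on 4 arrays, none of them parental. Its change was 0.232 with tumor arrays of number 1 alone and 1.443 with those of number 2 alone. On the second arrays 3 of the 6 ligands were higher and 0 lower, Ltb by 1.14, Tnfsf13b by 0.91 and Il1b by 0.58, beside 7.63% higher and 9.8% lower over all probe sets. The same counts were 1 higher and 0 lower of 12 receptors, 0 higher and 2 lower of 19 adaptors and kinases, 2 higher and 1 lower of 13 other subunits and inhibitors, and 3 higher and 2 lower of 24 other targets.

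Adaptors and kinases, 19 of 27 tested, had a median change of -0.0016 and 0 called, with 3 at an unadjusted p under 0.05. Tab2 and Map3k7, partners in the kinase complex that activates IKK, lay on opposite sides, at -0.54 (adjusted p = 0.18) and 0.59 (adjusted p = 0.199). Other subunits and inhibitors, 13 of 18 tested, had a median of 0.09 and 0 called, with 1 at an unadjusted p under 0.05. Rnf11 and Tnip2, both known from A20 complexes, had changes of 0.82 (adjusted p = 0.204) and 0.35 (adjusted p = 0.356). In single tumors the adjusted p of Rnf11 was 0.22, 0.347 and 0.371 for tumors 1, 2 and 3. With the replicate block these were 0.0263, 0.0446 and 0.054. Rela, the main activating subunit, had a change of -0.27 (adjusted p = 0.434).

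Of 42 other target genes 24 were tested, with a median change of 0.15, 17 of them above 0 and 0 called, with 3 at an unadjusted p under 0.05. Ebi3, a cytokine subunit, was 178 and 324 (tumor 1), 120 and 152 (tumor 2), 84.1 and 103 (tumor 3), against 45.3 and 23.6 in parental cells. All its tumor arrays lay above both parental arrays, and its change was 1.72 ± 0.38 (SE; adjusted p = 0.122). In single tumors the adjusted p of Ebi3 was 0.0103, 0.0688 and 0.136 for tumors 1, 2 and 3. With the replicate block these were 0.00512, 0.03 and 0.0615. Tnfaip2 lay below both parental arrays on every tumor array, with a change of -0.79 (adjusted p = 0.188). The median of the target list was -0.06 without tumor 1.

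**Figure D4:**
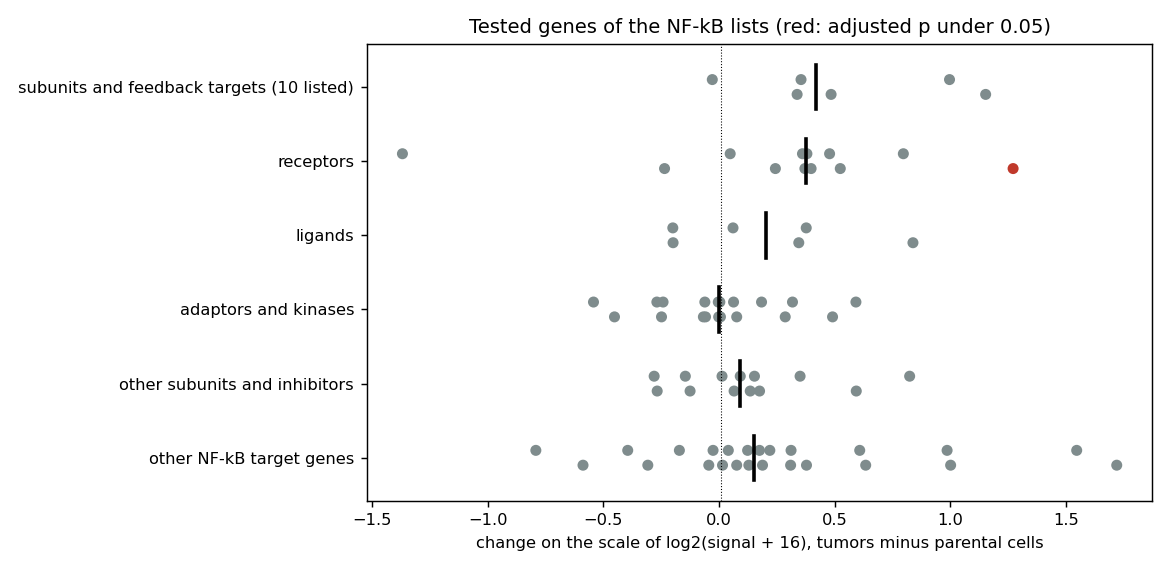
Change of each tested gene, one point a gene, on the x axis as log2(signal + 16) of tumors minus parental cells, with one row a list. Black bars are medians, the dotted line is the median of all tested probe sets, and red marks an adjusted p under 0.05. Il1rap is the only red point, and the 6 tested genes of the subunit and feedback list have a median of 0.42. These 6 include Traf1, which came to be tested through its tumor arrays alone. Each gene is shown by its tested probe set of highest mean, while the dotted line covers all tested probe sets.

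The genes whose pattern was most like that of Icam1 over the 8 arrays, out of 13646 probe sets of 1 symbol, were Calml4 (Pearson r 0.99), Rusc1 (0.99) and Gatad1 (0.98). Calml4 had signals of 35.0 to 134 in tumors, against 0.44 and 1.63 in parental cells. Those most like Traf1 were Ttc23 (0.97), Tulp3 (0.96) and Selp (0.96). Selp, which encodes the adhesion protein P-selectin, had signals of 221 and 256 in tumor 3 and 43.0 to 97.3 in tumors 1 and 2, against 25.5 and 41.1 in parental cells. These are descriptions over arrays that come from 4 sources and share their array numbers.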

How the data were processed

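RNA of 3 splenic tumors and of parental FL5.12 cells, 2 arrays each, was measured on Affymetrix arrays. Per the submitters' processing notes the deposited linear intensities, 1 for each probe set, came from MAS5. Its version is not stated there. The trimmed mean was 150 on each array, so arrays were already scaled, which lets a strong RNA class on 1 array lower the rest. Depth is not defined for arrays, and their number limits the precision.

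The 64 control probe sets were left out. Tests used log2(signal + 16), a scale that shrinks the changes of dim probe sets. Every probe set was tested singly in limma 3.58.1 (R 4.3.3), two-sided, with Benjamini-Hochberg adjustment over all 14893 tested. Duplicate arrays of a tumor were averaged, and the 3 tumor values were set against 2 parental arrays. The comparisons of single tumors, and the F test among them, used all 8 arrays with a mean per source, so that their spread is that between duplicate arrays. Symbols came from the platform annotation and were updated by gene ID to RefSeq GRCm38.p6. Of the probe sets 20380 had 1 symbol, 691 several and 1555 none. Promoters are RefSeq sequences.

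After the mean of each source was taken off, arrays of the same number correlated at 0.435 to 0.594 in all 6 pairs of sources. The replicate numbers in the labels therefore pair the arrays, and a replicate block was tried as an alternative.

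Named genes were all probe sets of the 10 genes, called genes and the 2 of lowest p of each NF-kB list. Named as well were the called genes of each marker list, the 3 genes most like Icam1 and Traf1, and Actb. Other genes were chosen after their values were seen. The members, lists and tests were chosen with earlier results of these data known. The code was tested on simulated data.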

Additional observations from a re-analysis of the deposited data

How the results depend on the processing

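The absence of a call among the 10 NF-kB probe sets in tumors against parental cells held under 18 of 19 alternatives; the exception was Icam1 with all arrays and the source as a random block. Icam1 and Traf1 stayed above 0 under every alternative run. The signs of changes near 0 turned. For Nfkbia 1420088_at the change was 0.725 with the tumor arrays of number 2 alone and 0.155 within arrays of number 2, and -0.598 to 0.54 with 1 sample left out. For 1448306_at it was 0.0164 with a pseudocount of 64, 0.461 and 0.394 for number 2 alone and within number 2, and -0.341 to 0.173 with 1 sample left out. For 1449731_s_at it was -0.577 and -0.0657 for number 1 alone and within number 1, and -0.478 to 0.545 with 1 sample left out. Nfkb2 1425902_a_at was -0.0179 within number 1 and -0.0876 to 0.462 with 1 sample left out. Between second and first arrays Nfkb2 1429128_x_at was 0.000192 with median centring and -0.159 to 0.152 with 1 source left out, and Traf1 was -0.0262 to 0.386.

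Over all probe sets 74 were called higher and 30 lower. The counts were 31 and 14 at pseudocount 64, 18 and 4 without a filter, 122 and 71 with the source as a random block, 48 and 14 with tumor arrays of number 1 alone, 5 and 0 within number 1 (565 lower at an unadjusted p of 0.05 by limma) and 9 and 3 within number 2. One probe set per gene gave 15 lower. Leaving out 1 sample gave 8 to 84 higher and 1 to 18 lower, with the fewest without a parental array (11 and 5 without the first, 8 and 1 without the second), where 1 parental array remained and its spread was taken from the tumors. With the replicate number as a block, tumors 1, 2 and 3 had 2049, 813 and 1360 called (435, 190 and 318 without it) and the F test 787 (188 without it, and 88 with a pseudocount of 1). Among the 10 NF-kB probe sets the block added the calls of Icam1 in tumors 2 and 3 and of Birc3 in tumor 3, kept that of Traf1 in tumor 3, and ended that of Icam1 in the random-block fit (65 higher and 34 lower over all probe sets). Second against first arrays gave 2595, 1316 with a pseudocount of 1 and 340 to 1560 with 1 source left out (848 without parental cells, 598, 340 and 1560 without tumors 1, 2 and 3). Comparisons within an array number, and those of array numbers, were chosen after seeing the data. The cause of these shifts was not tested.

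The main limits are 3 tumors, 2 parental arrays with no stated separate cultures, 4 untested probe sets of low signal, and tumor samples in which markers of other cell types were higher.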
